A study of Mus musculus with 14 samples.

Results

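The 10 genes described here encode enzymes of cholesterol synthesis, and were taken as a fixed list of symbols from the 22180 genes with a single gene symbol in the array annotation: Hmgcs1, Mvd, Fdps, Fdft1, Sqle, Lss, Cyp51, Msmo1, Nsdhl and Sc5d. Each was measured by 1 probe set. RNA came from the livers of male C57Bl/6J mice that were 6 weeks old when they began 4 weeks on a 60% fat diet (HFD) to make them obese, and all groups carry that history. For the next 4 weeks the HFD control mice were kept on it unchanged (n = 4 arrays), mice of the canagliflozin group had the drug at 30 mg/kg in addition (the protocol gives 25 to 30 mg/kg, n = 5), and the caloric restriction mice ate 15 to 30% less so that their weight followed that of the drug group (n = 5). Canagliflozin inhibits SGLT2, the transporter that returns filtered glucose to the blood in the kidney. The design asks what the drug changes in liver transcripts and what weight matching by restriction changes without it. The labels do not state whether each array is a separate mouse, so the spread between arrays may be partly technical.

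Liver makes much of the body's cholesterol from acetyl-CoA. The pathway first builds mevalonate and isoprenoid units, joins these into squalene, closes squalene into the sterol lanosterol and then trims lanosterol to cholesterol. The transcription factor SREBP-2, encoded by Srebf2, is known to drive these genes together when the membranes of the endoplasmic reticulum are low in cholesterol, and it acts with NF-Y, which binds the CCAAT box. Insulin and feeding are known to raise the pathway in liver, and the related factor SREBP-1, from Srebf1, acts mainly on fatty acid synthesis.

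RefSeq promoters (GRCm38.p6) were at hand for 7 of the 10 enzymes, and bases upstream of each gene are shown because the genes moved together from array to array. Each sequence is on the strand of its gene and ends at the base before the annotated gene; for Lss the start used in the promoter table lies 40 bases inside the gene, and those bases are not shown. Capitals mark the CCAAT box on either strand (CCAAT or ATTGG) and, in Hmgcs1, also a match to TCACNCCAC, a form of the sterol regulatory element that SREBP factors bind.
Hmgcs1, chr13:119690201-119690350, plus strand: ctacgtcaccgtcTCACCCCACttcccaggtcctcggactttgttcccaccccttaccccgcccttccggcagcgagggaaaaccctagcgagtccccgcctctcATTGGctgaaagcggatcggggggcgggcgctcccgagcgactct
Mvd, chr8:122443423-122443532, minus strand: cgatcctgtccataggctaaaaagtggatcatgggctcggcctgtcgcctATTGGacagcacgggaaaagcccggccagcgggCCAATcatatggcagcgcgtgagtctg
Lss, chr10:76531495-76531564, plus strand: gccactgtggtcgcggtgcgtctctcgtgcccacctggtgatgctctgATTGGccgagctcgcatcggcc
Cyp51, chr5:4104698-4104807, minus strand: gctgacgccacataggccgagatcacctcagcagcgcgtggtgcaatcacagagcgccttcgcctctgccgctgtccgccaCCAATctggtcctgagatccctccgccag
Msmo1, chr8:64733579-64733688, minus strand: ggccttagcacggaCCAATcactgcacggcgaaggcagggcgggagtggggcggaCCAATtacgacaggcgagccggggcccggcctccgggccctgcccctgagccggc
Nsdhl, chrX:72918411-72918520, plus strand: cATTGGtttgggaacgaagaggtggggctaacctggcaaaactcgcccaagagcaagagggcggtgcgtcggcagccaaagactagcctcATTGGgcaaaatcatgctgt
Sc5d, chr9:42264301-42264410, minus strand: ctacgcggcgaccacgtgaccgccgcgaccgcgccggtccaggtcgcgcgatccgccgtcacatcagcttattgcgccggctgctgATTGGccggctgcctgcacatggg
All 7 promoters held a CCAAT box in their 300 bases (250 before and 50 after the start, both strands), against 37.4% of the 32851 promoters in the RefSeq table. All 7 also held the GC box GGGCGG, against 35.7%. The element TCACNCCAC was found in 1 of the 7 (Hmgcs1, starting 137 bases before the start) and in 1.24% of all promoters. The looser form TCACNCNAC, which includes it, was found in Hmgcs1 and Nsdhl, 2 of the 7, and in 2.70% of all. These are matches of letters in a window and show no binding.

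Levels are RMA values on the log2 scale as the authors deposited them, and each is compared only with the same gene on other arrays. The main feature of the enzymes was a wide spread among arrays of the same group. Hmgcs1, which condenses acetoacetyl-CoA and acetyl-CoA to HMG-CoA at the entry of the pathway, had values of 7.74, 8.76, 10.11 and 9.54 in HFD control replicates 1 to 4. Under canagliflozin its values were 8.03, 8.28, 8.83, 8.50 and 9.60 in replicates 1 to 5, and under caloric restriction 8.50, 10.10, 8.41, 9.37 and 9.89. The control group alone thus held both the lowest and the highest of the 14 arrays, and the groups overlapped throughout.

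Farther along, Fdps makes farnesyl diphosphate, the branch point between sterols and other isoprenoids. It measured 7.52, 8.39, 9.03 and 8.83 in controls, 7.31, 6.80, 8.06, 7.64 and 8.85 under canagliflozin, and 7.83, 9.08, 7.78, 8.98 and 9.16 under restriction. Here 2 of 5 drug-treated arrays (replicates 1 and 2) lay below every control and 2 of 5 restricted arrays (replicates 2 and 5) lay above every control. Fdft1, the squalene synthase that commits farnesyl diphosphate to sterols, ranged from 8.06 to 9.40 in controls (median 8.96), from 8.17 to 9.14 under the drug (median 8.54) and from 8.22 to 9.35 under restriction (median 9.14). Mvd, which makes isopentenyl diphosphate from mevalonate diphosphate, ranged from 5.50 to 6.27 in controls, 5.21 to 5.69 under the drug and 5.24 to 6.03 under restriction, and its highest array was HFD control replicate 3.

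Sqle, the squalene epoxidase known as a control point of the pathway, measured 6.28, 6.99, 7.92 and 7.83 in controls, 6.18, 5.88, 6.56, 6.53 and 7.64 under canagliflozin, and 5.56, 8.08, 6.57, 7.52 and 7.74 under restriction. Its extremes both fell in the restricted group, replicate 2 being 5.755-fold above replicate 1. Lss, which closes the ring to lanosterol, measured 6.23, 6.49, 7.57 and 7.55 in controls, 5.70, 6.08, 7.28, 5.81 and 6.89 under the drug, and 6.47, 7.74, 6.40, 7.73 and 7.79 under restriction. In this gene drug replicates 1, 2 and 4 lay below every control, and restricted replicates 2, 4 and 5 above every control.

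The sterol-trimming enzymes showed the same arrays high and low. Cyp51, which removes a methyl group from lanosterol, measured 6.65, 7.40, 8.24 and 8.23 in controls, 6.94, 6.39, 7.13, 7.35 and 8.53 under the drug, and 6.50, 8.44, 7.20, 8.26 and 8.25 under restriction. Nsdhl, a sterol dehydrogenase of the next demethylation steps, measured 8.21, 8.93, 9.97 and 9.98 in controls, 8.36, 7.97, 8.79, 9.07 and 10.06 under the drug, and 8.65, 10.13, 8.96, 10.06 and 9.95 under restriction. In both genes canagliflozin replicate 5 exceeded every control while replicate 2 was below every control. Msmo1, the methylsterol monooxygenase that acts just before Nsdhl, ranged from 6.85 to 8.96 in controls, 7.22 to 8.74 under the drug and 7.46 to 8.73 under restriction. Sc5d, a late sterol desaturase, was the steadiest of the 10, with ranges of 10.58 to 11.05, 10.41 to 10.94 and 10.58 to 10.97 in the same order.

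**Figure D1:**
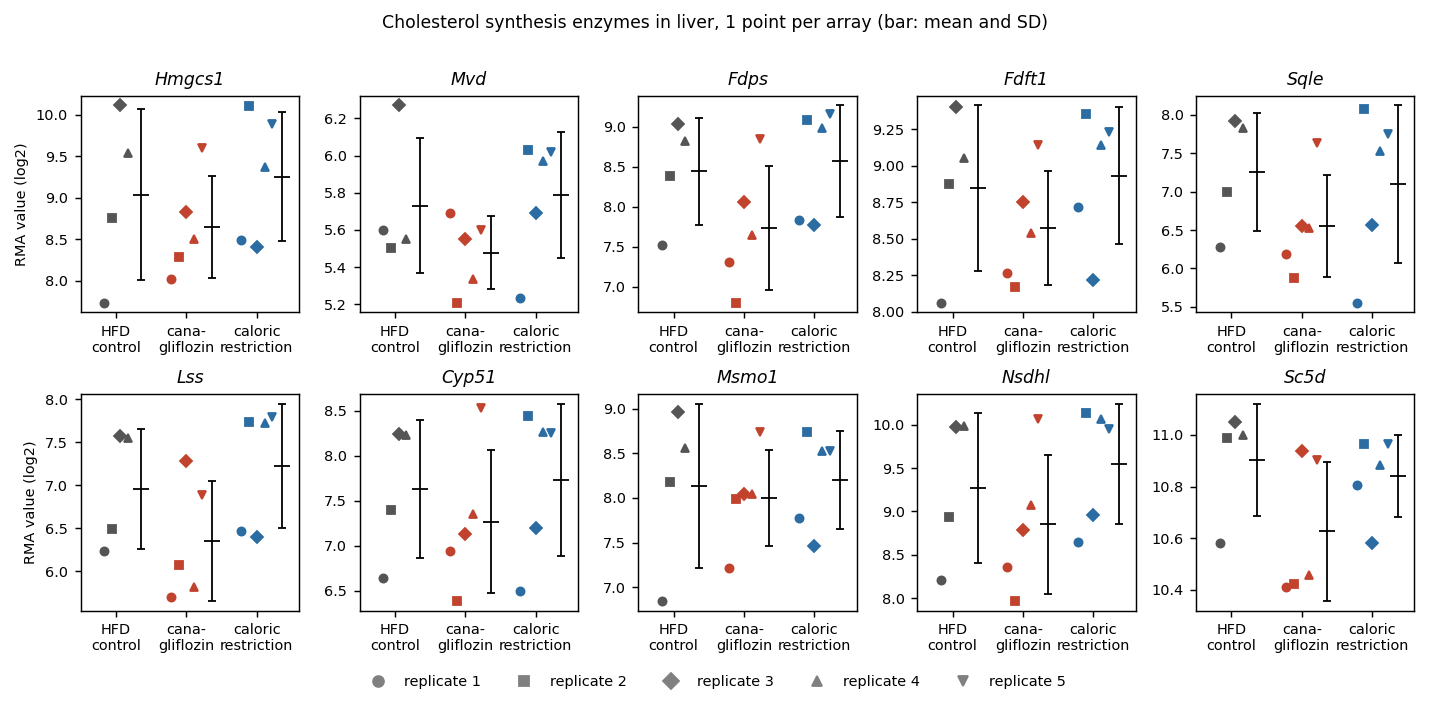
RMA value (log2) of each of the 10 enzymes on every array, in 3 groups, with 1 point per array (shape gives the replicate number) and the group mean with SD to the right of the points. The groups overlap in all 10 genes; Hmgcs1 controls alone run from 7.74 to 10.11.

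Within groups, the pooled SD was 0.84 for Sqle, 0.80 for Cyp51, 0.80 for Hmgcs1, 0.78 for Nsdhl, 0.72 for Fdps, 0.71 for Lss and 0.67 for Msmo1. Each of these 7 values lay above the SD of at least 99.6% of the 22180 genes, and of at least 99.29% of the 9300 genes with a mean log2 value of 5 or more. Fdft1 (0.47) lay at 98.8% and Mvd (0.30) at 92.1% of all genes, while Sc5d (0.22) lay at 72.4%. Cholesterol synthesis transcripts were thus, with these exceptions, among the most variable transcripts between arrays of a group.

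The same arrays were high or low in most enzymes. Averaged over the 10 enzymes, the deviation from each gene's mean over 14 arrays was -0.74, -0.06, 0.74 and 0.50 in HFD control replicates 1 to 4. It was -0.70, -0.79, -0.12, -0.38 and 0.49 under canagliflozin and -0.51, 0.76, -0.38, 0.53 and 0.64 under restriction. All 10 enzymes were above their own means in 4 arrays (HFD control replicate 3 and restriction replicates 2, 4 and 5). All 10 were below them in 3 others (HFD control replicate 1 and canagliflozin replicates 2 and 4). Exceptions within an array were seen too: canagliflozin replicate 3 had Lss 0.44 above its mean although 8 of the 10 enzymes were below theirs.

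**Figure D2:**
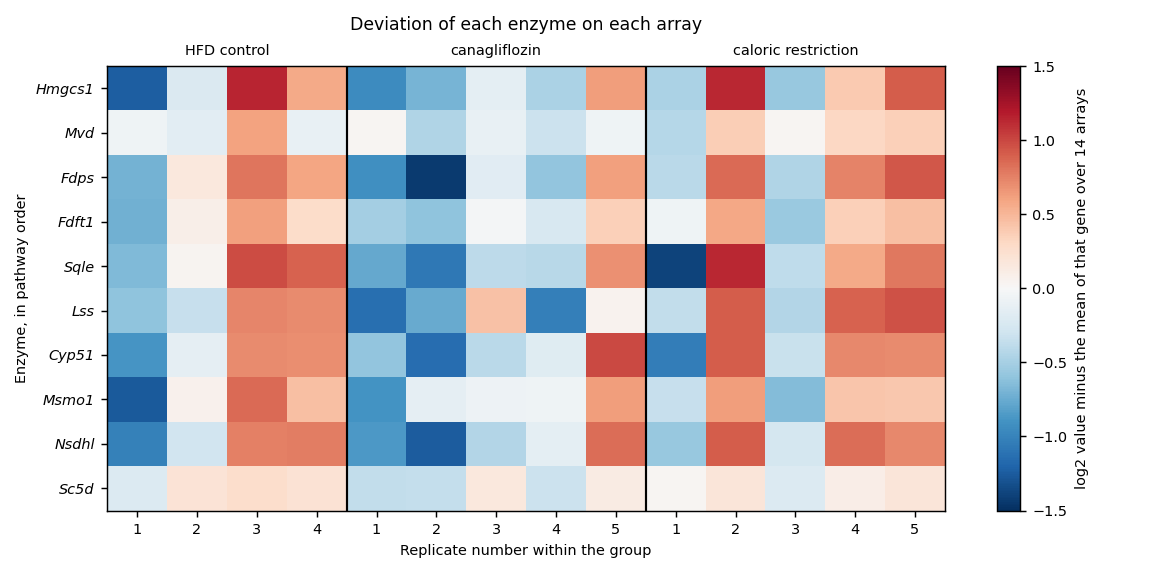
Deviation of each enzyme (rows, in pathway order) from its own mean over 14 arrays, in log2 units, on each array (columns, by group and replicate number). Whole columns share a colour: HFD control replicate 3 is above the mean in 10 of 10 enzymes and canagliflozin replicate 2 below it in 10 of 10.

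Against HFD controls, all 10 enzymes had lower means under canagliflozin, as did 50.3% of all genes (49.7% were higher), but none passed the threshold. Fdps had a mean of 8.44 ± 0.67 (SD, n = 4) in controls and of 7.73 ± 0.78 (n = 5) with the drug, a log2 difference of -0.71 ± 0.39 (SE) or 1.64-fold. Sqle averaged 6.56 ± 0.66 against 7.26 ± 0.77 (-0.70 ± 0.45), and Lss 6.35 ± 0.69 against 6.96 ± 0.70 (-0.61 ± 0.38). Nsdhl differed by -0.42 ± 0.42, Hmgcs1 by -0.39 ± 0.43, Cyp51 by -0.36 ± 0.43, Fdft1 by -0.27 ± 0.26, Mvd by -0.25 ± 0.18 and Msmo1 by -0.13 ± 0.36. Sc5d had the smallest p of the 10, at 10.63 ± 0.27 against 10.90 ± 0.22, a difference of -0.28 ± 0.14. Its limma adjusted p was 0.776 over 22180 genes. A 2-sided exact permutation test, whose smallest possible p is 0.0159, gave p = 0.0952. All 5 drug arrays lay below the control median of Sc5d, and so did all 5 restricted arrays.

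The median difference of the 10 was -0.38, where the median over all genes tested was -0.00085. In limma 0 of 22180 genes passed at an adjusted p of 0.05 (0% of all genes), and 6.51% had an unadjusted p under 0.05 (3.3% lower and 3.21% higher), among them 0 of the 10 enzymes. The groups did not overlap, with the drug lower, in 0 of the 10 enzymes and 0.965% of all genes. A log2 difference of -0.5 or lower was found in 3 of the 10 enzymes and in 0.406% of all genes, and one of 0.5 or higher in 0 of the 10 and 0.609% of all genes; the enzymes' spread within groups was wider than that of most genes, as given above. The counts cannot be read as 10 separate results, since the enzymes varied together. The intervals remained wide, with a 95% confidence interval for Fdps from -1.53 to 0.11 and for Hmgcs1 from -1.30 to 0.52. Leaving out HFD control replicate 1 gave a median of -0.73 and leaving out canagliflozin replicate 5 one of -0.65. The median was -0.17, -0.23 and -0.22 with HFD control replicate 3, HFD control replicate 4 or canagliflozin replicate 2 left out.

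Under caloric restriction the enzymes stood close to the HFD controls. Of the 10, 8 had higher and 2 lower means (50.5% and 49.5% of all genes), with a median log2 difference of 0.09 beside 0.0016 for all genes. Nsdhl differed by 0.28 ± 0.42 (SE), Lss by 0.27 ± 0.38, Hmgcs1 by 0.21 ± 0.43, Fdps by 0.12 ± 0.39, Cyp51 by 0.10 ± 0.43, Fdft1 by 0.09 ± 0.26, Msmo1 by 0.07 ± 0.36 and Mvd by 0.06 ± 0.18. Sqle differed by -0.16 ± 0.45 and Sc5d by -0.06 ± 0.14. Again 0% of genes passed in limma (smallest adjusted p among the enzymes 0.999), and 3.93% of genes (1.87% lower and 2.06% higher) but 0 of the 10 enzymes had an unadjusted p under 0.05. The intervals allow sizeable differences in either direction, such as -0.70 to 1.13 for Hmgcs1. The sign of the median turned without HFD control replicate 1 (-0.18), restriction replicate 2 (-0.01) or restriction replicate 5 (-0.0065).

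Canagliflozin against weight-matched restriction gave a median difference of -0.50 over the 10 enzymes and -0.0032 over all genes, and all 10 enzymes had lower means under the drug (51% of all genes did, and 49% were higher). Lss had a mean of 7.23 ± 0.72 (SD, n = 5) under restriction and of 6.35 ± 0.69 (n = 5) with the drug, a difference of -0.87 ± 0.36 (SE) or 1.83-fold. Fdps averaged 7.73 ± 0.78 against 8.56 ± 0.70, a difference of -0.83 ± 0.37 or 1.78-fold. For each of these genes 3 of 5 drug arrays lay below all restricted arrays and all 5 lay below the restricted median. Nsdhl differed by -0.70 ± 0.40, Hmgcs1 by -0.60 ± 0.41, Sqle by -0.54 ± 0.43, Cyp51 by -0.46 ± 0.41, Fdft1 by -0.36 ± 0.25, Mvd by -0.31 ± 0.17, Sc5d by -0.21 ± 0.13 and Msmo1 by -0.20 ± 0.34.

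Lss and Fdps had unadjusted limma p values of 0.0267 and 0.0369, which puts 2 of 10 enzymes beside 2.98% of all genes that were lower with an unadjusted p under 0.05 (3.07% were higher, 6.05% in either direction). Over all genes their adjusted p values were 0.801 and 0.810, and the exact permutation test gave p = 0.0952 and p = 0.103 (2-sided, smallest possible 0.00794). In this comparison 0.00451% of genes passed, which is 1 gene, Rtkn, named after its values were seen, and 0 of the 10 enzymes. A difference of -0.5 or lower was found in 5 of the 10 enzymes and in 0.334% of all genes. One of 0.5 or higher was found in 0 of the 10 and 0.356% of all genes. The enzymes varied together, and their spread within groups was wider than that of most genes. These counts, the 2 of 10 above included, cannot be read as separate results. Array position in the deposited table, entered as a covariate, brought the median from -0.50 to -0.27, with Lss at -0.68 and Fdps at -0.61 and Msmo1 at -0.0027. The median was -0.31 without canagliflozin replicate 2, -0.29 without restriction replicate 2, -0.78 without restriction replicate 1 and -0.79 without canagliflozin replicate 5. The comparisons share arrays, each group entering 2 of them, and their values are not independent of each other.

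**Figure D3:**
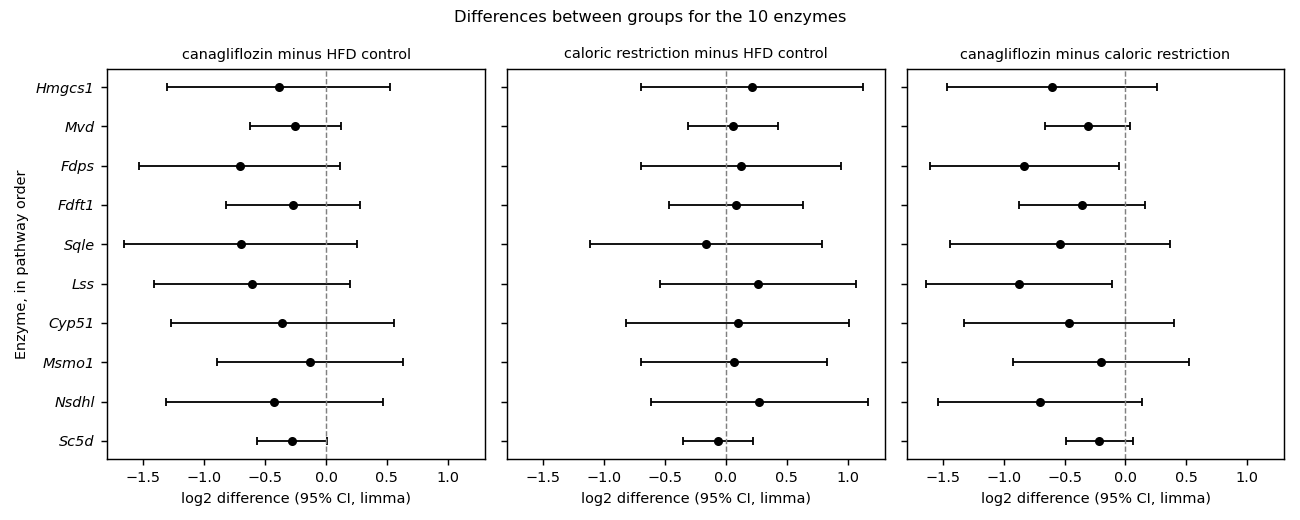
Log2 difference of each enzyme (rows, in pathway order) in the 3 comparisons, with the limma 95% confidence interval as bars and 0 as the dashed line. All 10 points lie left of 0 in both comparisons of canagliflozin; the interval excludes 0 for Lss and Fdps against restriction, before adjustment over genes.

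To ask whether the enzymes move together from array to array, each value was expressed as its deviation from the mean of its group, and the 45 pairs of enzymes were correlated over the 14 arrays. All 45 correlations were positive, with a median Pearson r of 0.853 and a range from 0.391 to 0.983. Of all pairs among the 22180 genes, 0.0281% reached r of 0.8529, and of pairs among the 9300 genes with a mean log2 of 5 or more, 0.0509%. The first component of the 10 standardised deviations held 83.7% of their variance and the second 7.79%. An adjusted p under 0.05 (permutation of arrays within groups, adjusted over the 45 pairs) was found for 42 pairs. The enzymes were listed together with earlier results of these data known, and all pairs share the same arrays and normalisation.

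The 2 highest correlations were not between adjacent enzymes of the list. Cyp51 and Nsdhl had r = 0.983 (permutation p = 3e-05, adjusted p = 0.0003375) and rho = 0.978 (permutation p = 3e-05), and r was 0.987 without the 2 arrays farthest from the median of Cyp51. Sqle and Cyp51 had r = 0.981 or, by rank, rho = 0.982 (permutation p = 4e-05 for both, adjusted p = 0.00036 for r), and 0.981 without the 2 farthest arrays. Pairs of adjacent late steps had lower values, such as Sqle with Lss (r = 0.808), Lss with Cyp51 (0.769) and Msmo1 with Nsdhl (0.866). Hmgcs1 and Fdft1 had r = 0.953 and rho = 0.960 (permutation p = 3e-05 for both, adjusted p = 0.0003375 for r), and 0.926 without the 2 farthest arrays. Hmgcs1 and Msmo1 had r = 0.951 and rho = 0.956 (permutation p = 3e-05 and p = 8e-05, adjusted p = 0.0003375 for r), and 0.924 without the 2 farthest arrays.

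Mvd followed the others least. Its mean r with the other 9 enzymes was 0.592, against 0.745 for Sc5d, 0.797 for Lss and between 0.811 and 0.879 for the remaining 7. The 3 pairs that did not pass all involved Mvd: with Fdft1 (r = 0.566, adjusted p = 0.0858), with Msmo1 (r = 0.462, adjusted p = 0.173) and with Sc5d (r = 0.391, adjusted p = 0.168), by permutation. Mvd was the dimmest of the 10 probe sets, with a mean of 5.66, and Sc5d the brightest, with a mean of 10.78; the part of probe brightness in these lower correlations was not tested.

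**Figure D4:**
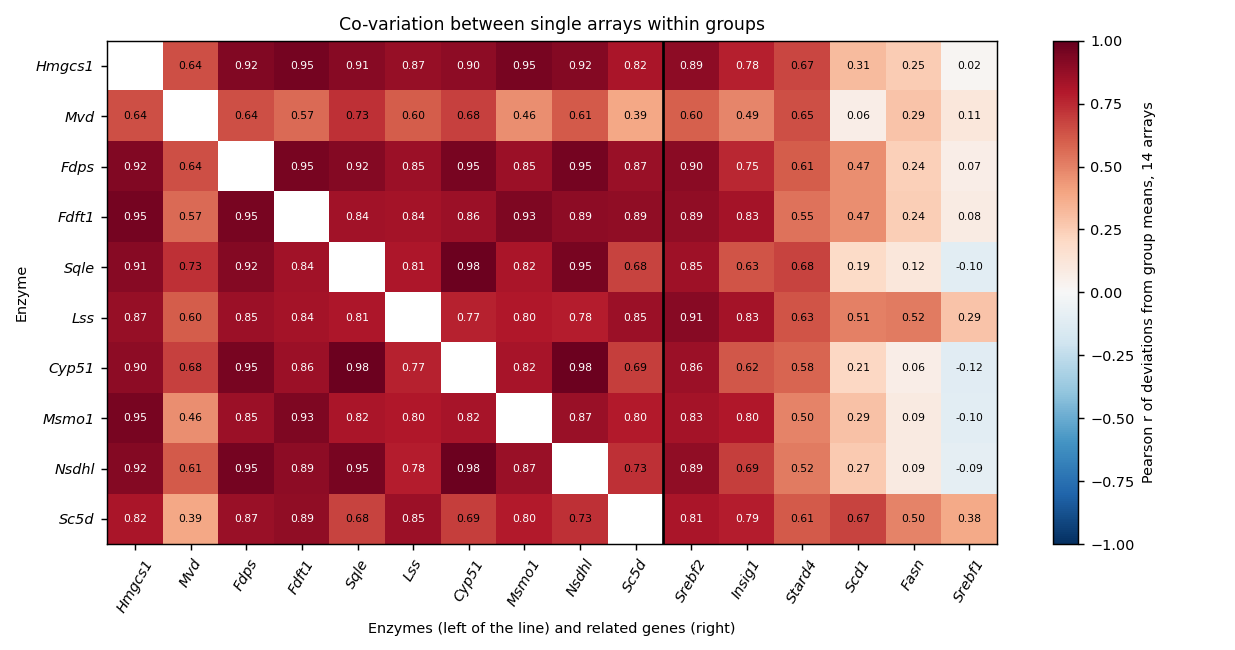
Pearson r of deviations from group means over 14 arrays, for each pair of enzymes (left of the line) and each enzyme with 6 related genes (right of the line). The enzymes correlate with each other at 0.391 to 0.983 and with Srebf2 at 0.597 to 0.911, while their correlations with Srebf1 run from -0.117 to 0.380.

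Array position moved with this shared variation. In the order of the deposited table, in which the groups alternate, the first 4 arrays and the last 5 lay on opposite sides of the enzyme means. The mean position was 6.6 for canagliflozin, 7.5 for HFD control and 8.4 for restricted arrays, so position ran partly along with group. With position as a covariate, the median difference of the enzymes was -0.26 in place of -0.38 for canagliflozin against controls. For restriction against controls it was 0.018 in place of 0.09. Correlations with position were computed on the deposited values, without subtracting group means. Over the 14 arrays r with position was 0.820 for Nsdhl (permutation p = 5e-04, adjusted p = 0.00495 over the 10 enzymes; rho = 0.741, permutation p = 0.00291; r = 0.795 without the first and last array). It was 0.800 for Cyp51 (permutation p = 0.00099, adjusted p = 0.00495; rho = 0.736, permutation p = 0.00358; 0.798 without those arrays). The 10 enzymes had a median r of 0.735 with position, the lowest being Sc5d (0.556, adjusted p = 0.0455) and Mvd (0.419, adjusted p = 0.137), both by permutation, and 0.505% of all genes had an r as high as that median and 0.582% one as far below 0. Among the 9300 genes with a mean log2 of 5 or more these shares were 1.03% and 1.05%. The sources used here do not say how position relates to the day of killing, RNA extraction or hybridisation, and its part in the shared variation was not tested beyond the covariate. With position removed together with the group means, the median r of the 45 pairs was 0.701, all 45 stayed positive and 29 had an adjusted p under 0.05 (permutation).

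On the deposited values the arrays fell into 8 lower and 6 higher ones, with a gap of 0.55 between -0.06 and 0.49 in the mean deviation of the 10 enzymes. Within these sets, which were formed from the same values after the data were seen, the median r of the 45 pairs was 0.456 over the 8 lower arrays (42 pairs positive) and 0.305 over the 6 higher arrays (35 positive). Both values were computed without subtracting group means, for which the median r over all 14 arrays was 0.847. Each lay below that value, and each set spans a narrower range of levels. In deviations from group means, on which the median of 0.853 was computed, the largest gap was 0.26 of a range of 1.64. The lower set held 4 canagliflozin, 2 control and 2 restricted arrays.

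**Figure D5:**
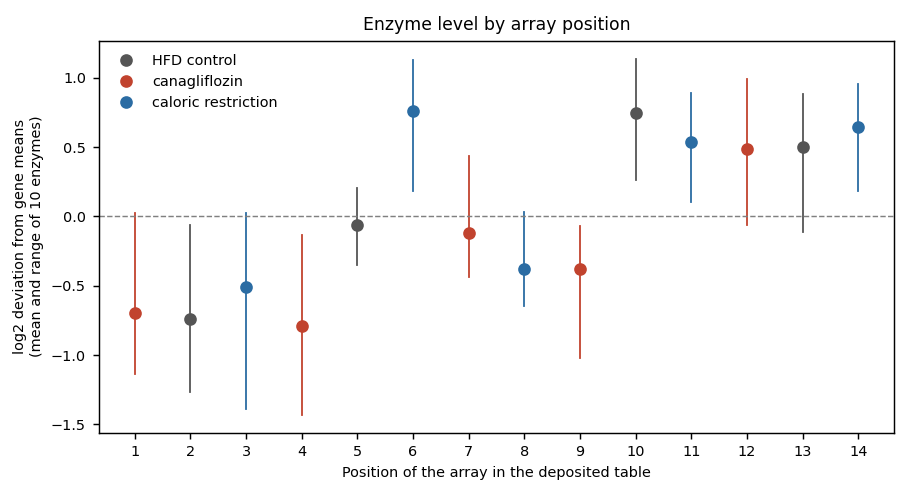
Mean deviation of the 10 enzymes from their gene means (points, log2) with the range over the enzymes (lines), against the position of the array in the deposited table, coloured by group. Positions 1 to 4 lie between -0.79 and -0.51 and positions 10 to 14 between 0.49 and 0.74.

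The enzymes were then set against 6 genes known as regulators, sterol-responsive genes or lipogenic neighbours, giving 60 pairs on deviations from group means. Array position was not removed from these pairs, and its part in them was not tested. Srebf2, which encodes SREBP-2 and is itself known as a sterol-responsive gene, had an adjusted p under 0.05 with 9 of 10 enzymes (r from 0.597 for Mvd to 0.911 for Lss). For Lss and Srebf2, Pearson r was 0.911 (permutation p = 0.00094, adjusted p = 0.00818 over 60 pairs), the rank correlation rho was 0.824 (permutation p = 0.00273), and Pearson r was 0.887 when the 2 arrays farthest from the median of Lss were left out. Insig1, which retains the SREBP complex in the endoplasmic reticulum and is a target of SREBP, passed with 6 of 10 enzymes (r from 0.487 to 0.834). Stard4, a cholesterol carrier, passed with 0 of 10 by this permutation test, although r ranged from 0.499 to 0.675 and 6 of the 10 unadjusted p values were under 0.05, the largest of these being 0.0383.

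Genes of fatty acid synthesis varied widely in this respect. Srebf1 had r between -0.117 and 0.380 with the 10 enzymes and passed with 0 of 10, and Fasn, the fatty acid synthase, had r between 0.0628 and 0.518 and passed with 0 of 10 (permutation). Scd1, the stearoyl-CoA desaturase, passed with Sc5d only (r = 0.673, permutation p = 0.0129, adjusted p = 0.0483; rho = 0.604, permutation p = 0.0392; 0.595 without the 2 farthest arrays), and its r with the other enzymes ranged from 0.0630 to 0.507. Whether the correlations with Srebf2 and Srebf1 differ was not tested. By the mean r with the 10 enzymes, Acss2 (0.748) and Me1 (0.634), which also serve fatty acid synthesis, lay above Stard4 (0.599), and Acss2 also above Insig1 (0.721). Against controls, Srebf2 differed by 0.05 ± 0.16 (SE) under canagliflozin. That value was -0.09 without HFD control replicate 1 and 0.17 without HFD control replicate 4. Srebf1 differed by -0.62 ± 0.24, Fasn by -1.13 ± 0.27 and Scd1 by -1.04 ± 0.33 under the drug. All of these genes had a limma adjusted p of 0.559 or more, and their differences were not compared with each other.

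Among 8647 other named genes with a mean log2 of 5 or more, likeness was measured as the mean Pearson r with the 10 enzymes over the 14 arrays, on the same deviations, as a description. The 10 most alike were led by Dhcr7 (0.891), the reductase that makes cholesterol in the last step, and Rdh11 (0.885), a retinol dehydrogenase. Next were Hsd17b7 (0.850), which works between Nsdhl and the late steps, Srebf2 (0.843), Mvk (0.828), the mevalonate kinase, and Tmem97 (0.810), an endoplasmic reticulum protein that binds sterols. Tm7sf2 (0.806), a sterol reductase, Elovl2 (0.798), an elongase of polyunsaturated fatty acids, Mmab (0.796), an enzyme of cobalamin metabolism whose gene neighbours Mvk, and Actg1 (0.795), a cytoskeletal actin, completed the list. Of these 10 genes, 4 were on the list of other cholesterol synthesis enzymes, which had 8 members among the measured genes. The rest of that list had lower values: Pmvk 0.778, Erg28 0.769, Lbr 0.678 and Ebp 0.334, the last at rank 1719. The part of array position in this ranking was not tested.

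The other enzymes of the pathway were taken from a list. Of 12 listed, 8 were analysed here. Against controls 5 of 8 had lower and 3 higher means under canagliflozin (median -0.07), the 3 higher ones being close to 0: Mvk 0.06, Hsd17b7 0.01 and Tm7sf2 0.0073. Without HFD control replicate 1 these 3 were at -0.18, -0.19 and -0.14, and without HFD control replicate 3 at 0.30, 0.15 and 0.08. Pmvk, the phosphomevalonate kinase, differed by -0.43 ± 0.29 (SE) and Dhcr7 by -0.29 ± 0.22. Under restriction 8 of 8 had higher means (median 0.11), led by Mvk (0.29 ± 0.23) and Tm7sf2 (0.26 ± 0.22). Between the treatments 8 of 8 were lower under the drug (median -0.24), with Pmvk at -0.49 ± 0.27 and Erg28, an endoplasmic reticulum scaffold of sterol enzymes, at -0.29 ± 0.16. In limma 0 of these 8 passed in any of the 3 comparisons (smallest adjusted p 0.828), and 0 had an unadjusted p under 0.05.

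Of 8 listed genes of sterol control and uptake, 6 were analysed here. Stard4 differed by -0.47 ± 0.16 (SE) under canagliflozin against controls, at 7.48 ± 0.26 (SD, n = 5) and 7.95 ± 0.20 (n = 4), and Insig2, a second retention protein of SREBP, by 0.37 ± 0.15 (limma adjusted p = 0.634 and 0.731). Under restriction they differed from controls by -0.15 ± 0.16 and 0.19 ± 0.15, and between the treatments by -0.32 ± 0.15 and 0.18 ± 0.14. The list's medians were -0.05, 0.12 and -0.12 in the 3 comparisons, and 0 of 6 passed in each. The 8 genes of fatty acid synthesis had medians of -0.41 under the drug, -0.08 under restriction and -0.53 between the treatments, with 0 of 8 called. An unadjusted p under 0.05 with a lower mean was found in 5 of 8 under the drug against controls (3.3% of all genes), in 0 of 8 under restriction (1.87%) and in 5 of 8 between the treatments (2.98%). These 8 genes share arrays and were listed with earlier results of these data known, and the counts cannot be read as separate results. Acss2, which makes acetyl-CoA from acetate, and Elovl6, an elongase, differed by 0.36 ± 0.27 and 0.24 ± 0.23 under restriction.

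The hepatic label was checked on 6 hepatocyte markers, which averaged 12.09 to 12.22 on all 14 arrays. In bulk liver, fewer cells of a type and less RNA per cell cannot be told apart. The mean of the 7 macrophage markers ran from 6.42 to 7.36 in controls, 6.81 to 7.31 under the drug and 6.26 to 7.18 under restriction, and the 6 sinusoidal endothelial markers from 7.62 to 7.98, 7.57 to 8.01 and 7.58 to 8.06. The 6 stellate cell markers ran from 6.91 to 7.24, 6.90 to 7.14 and 6.71 to 7.10. The 4 measured cholangiocyte, 4 lymphocyte, 4 neutrophil and 3 adipocyte markers averaged 4.56 or less on every array. The 3 measured proliferation markers averaged 3.79 ± 0.08 in controls (SD, n = 4), 3.91 ± 0.08 under the drug (n = 5) and 3.67 ± 0.07 under restriction (n = 5). Over the 14 arrays, in deviations from group means, the mean of the 10 enzymes had r = 0.474 with the cholangiocyte markers, 0.427 with the sinusoidal endothelial, 0.266 with the hepatocyte and -0.217 with the macrophage markers, and between -0.115 and 0.140 with the other 5 lists; these are descriptions over shared arrays. The part of these cells in the enzyme values was not tested. Array medians over all probe sets lay between 4.07 and 4.13, and pairs of arrays correlated at 0.986 to 0.992 over the named genes.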

How the data were processed

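The deposited table holds log2 values per probe set, made by the authors; per the submitters' processing notes, the tools were Affymetrix Expression Console and RMA. For version and build: not given in the sources used here. RMA equalises the array distributions, so a global change in RNA would not be seen. Labelling used 250 ng of RNA, per the labels' protocols. Of 41345 probe sets, 23521 had 1 gene symbol, 1814 several and 16010 none in the annotation given; the probe set with the highest mean per symbol gave 22180 genes, tested without a filter. Precision is limited by the number of arrays.

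Group means of all 14 arrays were fitted with limma 3.58.1 (R 4.3.3, lmFit and eBayes) without covariates, and p values were adjusted by Benjamini-Hochberg over all genes (threshold 0.05). Correlations used deviations from group means and 100000 permutations of arrays within groups. Those with array position used the deposited values without that subtraction and permuted all arrays. Exact permutation tests compared single genes. The limma fit and the pair correlations were tested on simulated arrays with independent noise. These held no trend with array position, and for limma no shared variation between genes, so behaviour under either was not tested. Alternatives were other scalings, filters, variance settings, the replicate block, array position and leaving out each array. The enzymes, the gene and marker lists, and the rule for named genes (the 10 enzymes, the 2 genes with the smallest p per pathway list and comparison, the 10 most alike and 3 least alike genes, and 6 related genes) were chosen with earlier results of these data known. Some listed genes are not reported here.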

Additional observations from a re-analysis of the deposited data

Results flagged for a closer look

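In 2 of the 30 groups of values (10 enzymes in 3 groups of arrays) a single array lay far from the others of its group, by the ratio of its gap to the range of the group. Mvd measured 6.27 in HFD control replicate 3, with the nearest control at 5.60. Sc5d measured 10.58 in HFD control replicate 1, with the nearest control at 10.99. By chance about 5% of groups, or 1.5 of 30, would be marked.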

How the results depend on the processing

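None of the 10 enzymes passed the limma threshold in any of 55 refits over the 3 comparisons. The enzymes' differences kept their sign in 177 of 180 alternative values for canagliflozin against controls, 152 of 180 for restriction against controls and 190 of 190 for canagliflozin against restriction. Genes called over the whole table numbered 1 in place of 0 for canagliflozin against controls when testing was limited to means of 5 or more (log2), 1 in place of 0 with array position as a covariate in each comparison with controls, and 0 in place of 1 between the treatments when only these groups were fitted. Leaving out 1 array gave 0 to 12 genes for canagliflozin against controls and 0 to 16 between the treatments, the highest in both cases without canagliflozin replicate 3, where Fasn was called (-1.41 and -1.14 on the log2 scale); for restriction against controls it gave 0 throughout. The cause was not tested. Same-numbered arrays correlated between -0.0893 and 0.198 in their deviations over all genes, with a median of 0.050 and 3 of 13 pairs above 0.1. Pairs of other numbers had a median of -0.019, with 8 of 52 above 0.1. Of the 14 arrays, 5 were closest to their own number in another group, and the numbers were not taken as a pairing. Within each group the numbers follow the deposited order, and a pairing in the enzymes alone was not tested. With the replicate number as a block, the enzyme medians were -0.59, -0.04 and -0.50 in the order of the report, with 0 enzymes called. Unadjusted limma p values under 0.05 for canagliflozin against controls were then those of Fdps (0.0090), Sqle (0.017), Sc5d (0.029) and Lss (0.044). The other enzymes had 0.0596 or more. In this fit 2 genes in place of 1 were called between the treatments. The median correlation of 0.853 between enzymes was 0.701 with array position removed and 0.847 without subtraction of group means. Also without that subtraction, it was 0.456 within the 8 lower arrays and 0.305 within the 6 higher arrays. These last 2 settings were chosen after seeing the data. The number of arrays limits what can be called: the 95% interval of an enzyme's difference reached 0.81 to either side in the median against controls.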

Other observations

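The isoprenoid branch that leaves the pathway after farnesyl diphosphate was measured by 7 of 8 listed genes, Pdss1 not being analysed here, and 0 of 7 passed in limma in any comparison. Coq2, a prenyltransferase of coenzyme Q synthesis, averaged 6.28 ± 0.18 (SD, n = 5) under caloric restriction, 6.60 ± 0.20 (n = 4) in HFD controls and 6.56 ± 0.12 (n = 5) under canagliflozin (limma adjusted p = 0.999 for restriction against controls and 0.785 for canagliflozin against restriction). Against controls under the drug, Dhdds, which makes dolichol precursors, differed by -0.13 ± 0.13 (SE) and Pdss2, of coenzyme Q synthesis, by 0.08 ± 0.09. Fnta, a subunit of protein farnesyltransferase, differed by -0.09 ± 0.09 under restriction, and Ggps1, which makes geranylgeranyl diphosphate, by -0.19 ± 0.12 between the treatments.

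The 3 genes least like the cholesterol synthesis enzymes ran opposite to them across arrays. Id2, an inhibitor of helix-loop-helix transcription factors, had a mean r of -0.847 with the 10 enzymes, Hint2, a mitochondrial nucleotide-binding protein, -0.831 and Pcnt, a centrosome protein, -0.781, as a description over 14 arrays in deviations from group means. Id2 averaged 9.32 ± 0.25 in HFD controls (SD, n = 4), 8.90 ± 0.30 under canagliflozin and 9.06 ± 0.36 under caloric restriction (n = 5 each).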
